A study of Mus musculus with 4 samples.

Results

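The Schwann cell and nerve sheath genes described here are Fabp7, Cdh19, S100b, Sox10, Gfra3, Ngfr and L1cam. They were chosen by name, but with earlier results of these data known. Shares of all genes set beside them below are therefore a description and not a test. Each gene was read from the probe set whose platform annotation gives it as the single symbol. Each of the 7 genes had 1 such probe set, out of 18820 genes with a probe set of this kind, and all 7 passed a filter that kept the 14115 genes with a mean log2 value over the arrays at or above the 25th percentile of genes. The tissue was the mouse inferior vena cava, profiled with 1 Affymetrix array for each of 4 groups. The groups were Cd39-null mice (CD39 knockout, lacking the nucleotide-degrading ectoenzyme encoded by Entpd1) 48 h after the vein had been ligated, Cd39-null mice after sham surgery, wild-type mice 48 h after ligation, and wild-type mice after sham surgery. Every mouse was 8 to 10 weeks old, of either sex, on a C57BL/6J background reached by at least 8 generations of crossing. Sham mice had a laparotomy and dissection of the vein with no ligature. In ligated mice side branches were also tied and back branches cauterised, so the surgeries differ in more than the flow in the main vein. RNA of 4 mice was pooled for each array, so a difference between 2 arrays has no replicate check and carries no p-value. The sources used here do not say of which sex the pooled mice were, whether ligation was complete or partial, or whether clot was part of the piece of vein.

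Schwann cells are the glia of peripheral nerves. They wrap the axons that run in the outer coat of blood vessels and around ganglia, most of them as non-myelinating cells around the thin fibres of the sympathetic system. The transcription factor Sox10 sets and keeps their identity. S100b (a calcium-binding protein), Fabp7 (a fatty acid binding protein of immature and non-myelinating glia) and Cdh19 (a cadherin of Schwann cell precursors and Schwann cells) mark the lineage. Gfra3 (the receptor for the growth factor artemin) and Ngfr (the low-affinity neurotrophin receptor) receive growth factor signals, and L1cam is an adhesion molecule at the contact between axon and glia. Several of these genes are also used elsewhere: S100b in adipocytes, Sox10 in melanocytes, and Gfra3, Ngfr and L1cam in neurons.

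The targeted gene, Entpd1, had a log2 value of 6.14 on the array labelled ligated Cd39-null, 4.16 in sham Cd39-null, 6.17 in ligated wild type, and 7.11 in sham wild type. The ligated array of the knockout therefore goes against its genotype label, and is named below by its label, as the array labelled ligated Cd39-null; every direction drawn from it rests on that label. The position of the Entpd1 probe set relative to the deletion is not known here. The 95th percentile of 1006 olfactory receptor probe sets was used as a stand-in for background. It was 2.68 log2 on the array labelled ligated Cd39-null, 2.97 in sham Cd39-null, 2.66 in ligated wild type, and 2.94 in sham wild type. The stand-in was thus itself lower on both ligated arrays, so small negative ligation differences of dim genes are approximate. Vein wall genes were measurable: all 10 endothelial genes examined were above this background on all arrays, and so were all 10 smooth muscle genes apart from Itga8 on the array labelled ligated Cd39-null.

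Ligation against sham is the first comparison, and it asks whether the glial genes of the vein differed 48 h after ligation. The sample labels give no time after surgery for the sham groups. Most of the 7 glial genes were lower in ligated veins of both genotypes. In Cd39-null mice 2 of the 7 members, S100b and Cdh19, were at least 2-fold lower and none was 2-fold higher; 5.80% of all genes kept were at least 2-fold lower in this comparison, 10.9% higher and 16.7% in all. In wild-type mice 3 of 7, Fabp7, Cdh19 and S100b, were at least 2-fold lower and none was higher, against 3.63% of all genes that were lower, 6.60% that were higher and 10.2% in all. Cdh19 and S100b were at least 2-fold lower in both genotypes, which was true of 1.45% of all genes. The median log2 difference of the members was -0.72 in Cd39-null and -0.73 in wild-type mice, beside medians over all genes of 0.03 and -0.01. All 7 members were below 0 in Cd39-null and 6 of 7 in wild type, where 48.3% and 50.6% of all genes were below 0. These signs do not allow for the lower background stand-in of the ligated arrays. Counted from the stand-in of each array, Ngfr was higher after ligation in Cd39-null (0.64 against 0.56) and in wild type (1.42 against 1.10). Sox10 was then at 0.77 against 0.84 in Cd39-null, and L1cam at 1.24 against 1.37 in wild type. Lower values were not limited to glial genes. The median of the 10 smooth muscle genes was -0.77 in Cd39-null and -0.44 in wild type, with 5 and 3 at least 2-fold lower. That of the 10 endothelial genes was 0.19 in Cd39-null and -1.35 in wild type, with 1 and 7 at least 2-fold lower. In bulk tissue, fewer cells of a type, less RNA per cell and a larger share of RNA from other cells cannot be told apart. Median ligation differences in Cd39-null and wild type were 1.39 and 2.05 for macrophage genes and 2.23 and 0.14 for neutrophil genes. For platelet genes they were 4.22 and -1.26. The part of such cells in the glial values was not tested.

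**Figure D1:**
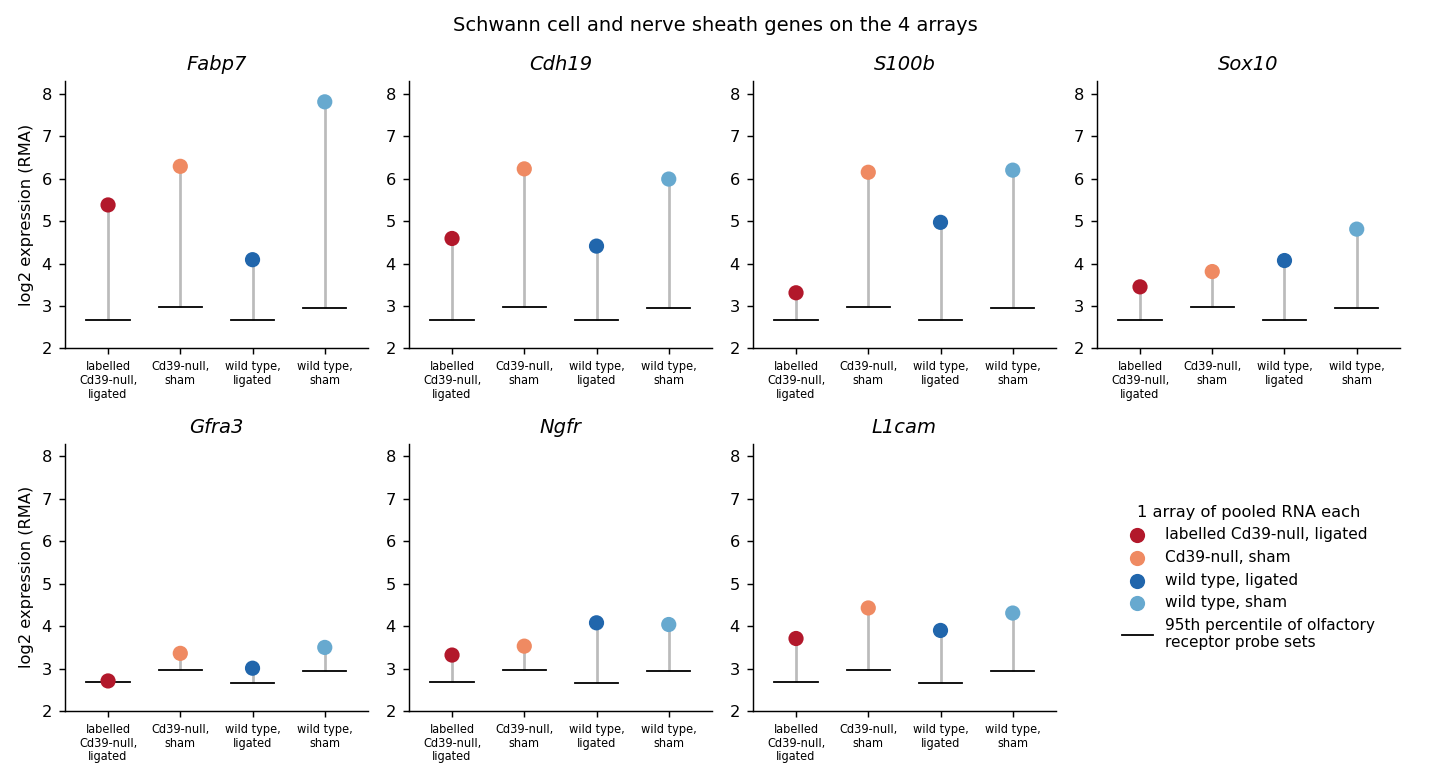
Log2 expression (vertical axis, RMA values) of the 7 genes on the 4 arrays, 1 array of RNA pooled from 4 mice per group. Horizontal ticks mark the 95th percentile of olfactory receptor probe sets on each array. Fabp7, Cdh19 and S100b are higher on both sham arrays than on both ligated arrays, and Gfra3 on the array labelled ligated Cd39-null lies at the tick.

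Among the lineage markers, Cdh19 gave nearly the same difference in both genotypes. Its log2 value was 4.59 on the array labelled ligated Cd39-null, against 6.23 in sham Cd39-null, and 4.41 in ligated wild type, against 5.99 in sham wild type. Both ligated values thus lay below both sham values, and the ligation differences of -1.64 in Cd39-null and -1.59 in wild type correspond to 3.11-fold and 3.00-fold lower levels. Among the 14115 genes, Cdh19 ranked 273rd from the lowest difference in Cd39-null and 124th in wild type.

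S100b was also lower in both genotypes, by a larger amount in the knockout. Its log2 value was 3.31 on the array labelled ligated Cd39-null, against 6.15 in sham Cd39-null, and 4.97 in ligated wild type, against 6.20 in sham wild type. The sham arrays were close to each other and the ligated arrays were not. The ligation difference was -2.84 in Cd39-null, the 47th lowest of all genes, and -1.23 in wild type, so S100b was 7.17-fold lower in the knockout and 2.35-fold lower in wild type. The value on the array labelled ligated Cd39-null was 0.63 log2 above the background stand-in.

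Fabp7 had the opposite order of sizes. Its log2 value was 5.38 on the array labelled ligated Cd39-null, against 6.29 in sham Cd39-null, and 4.09 in ligated wild type, against 7.81 in sham wild type. The wild-type difference of -3.72, 13.2-fold lower, was the 2nd lowest of 14115 genes, whereas the knockout difference was -0.91, or 1.88-fold lower (-1.17, past 2-fold, after quantile or cyclic loess normalisation). Both sham values were above both ligated values, and all 4 were at least 1.43 log2 above the background stand-in. The wild-type sham array was the highest of the arrays for Fabp7 and the wild-type ligated array the lowest, with both Cd39-null arrays between them.

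Fabp7 and S100b both lie on mouse chromosome 10 and were the members with the largest mean ligation difference. The 250 bases before their annotated starts (RefSeq, GRCm38.p6) are shown so that the promoters of the pair can be compared; Fabp7 is at chr10:57784673-57784922 and S100b at chr10:76253586-76253835, both on the plus strand. Capitals mark CCAAT or its reverse complement ATTGG, a common promoter element searched for after the sequences had been seen.
Fabp7: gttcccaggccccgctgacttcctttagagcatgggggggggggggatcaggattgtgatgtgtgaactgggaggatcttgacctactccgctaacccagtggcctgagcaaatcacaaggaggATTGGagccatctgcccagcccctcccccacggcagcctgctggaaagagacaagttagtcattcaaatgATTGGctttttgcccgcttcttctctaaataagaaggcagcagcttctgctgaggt
S100b: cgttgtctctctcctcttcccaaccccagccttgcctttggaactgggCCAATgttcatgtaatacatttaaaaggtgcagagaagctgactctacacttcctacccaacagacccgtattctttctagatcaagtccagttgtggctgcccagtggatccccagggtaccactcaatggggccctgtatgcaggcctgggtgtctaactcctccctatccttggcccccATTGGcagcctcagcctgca
Both promoters held 2 copies of this element, and 1 of the windows of L1cam held 1 copy. How common 2 copies are among all promoters was not counted. At least 1 copy occurred in 33.8% of 32851 promoter windows of the same length. The core motifs of Sox factors, ACAAAG and ACAATG, searched on both strands, were found in 25.2% of these windows and in none of the windows of Fabp7, S100b, Ngfr and L1cam, the 4 members in the table. GC content was 54.8% for Fabp7 and 53.6% for S100b, beside 70.4% for Ngfr, 69.6% and 63.2% for the windows of L1cam, and a median of 52.4% over all windows. A match or its absence describes these letters in this window and nothing about the factors.

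Sox10, the lineage transcription factor, showed smaller differences. Its log2 value was 3.45 on the array labelled ligated Cd39-null, against 3.81 in sham Cd39-null, and 4.07 in ligated wild type, against 4.81 in sham wild type. Ligated was below sham within each genotype, with differences of -0.36 and -0.73, but the wild-type ligated value was above that of sham Cd39-null, so ligated and sham values overlapped. Neither difference reached 2-fold.

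The growth factor receptors differed little. Gfra3 had 2.71 log2 on the array labelled ligated Cd39-null, against 3.36 in sham Cd39-null, and 3.01 in ligated wild type, against 3.50 in sham wild type. Both ligated values were below both sham values, by -0.64 in Cd39-null and -0.49 in wild type, but Gfra3 was dim, at most 0.56 log2 above the background stand-in, so the sizes are approximate. Ngfr had 3.32 log2 on the array labelled ligated Cd39-null, against 3.53 in sham Cd39-null, and 4.08 in ligated wild type, against 4.04 in sham wild type. Its arrays were ordered by genotype and not by surgery, and its ligation differences were -0.22 in Cd39-null and 0.04 in wild type. It was the 1 member with opposite signs in the genotypes, as had 31.5% of all genes; after quantile normalisation the wild-type value was -0.05.

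The adhesion molecule L1cam was slightly lower after ligation in both genotypes. It had 3.71 log2 on the array labelled ligated Cd39-null, against 4.43 in sham Cd39-null, and 3.90 in ligated wild type, against 4.31 in sham wild type. Both ligated values lay below both sham values, with differences of -0.72 and -0.41. Tulp2, a gene under the background stand-in on all 4 arrays, differed by as much (-0.69 in Cd39-null and -0.40 in wild type). The part of a background shift in the L1cam values was not tested. Thus 5 of the 7 members, Fabp7, Cdh19, S100b, Gfra3 and L1cam, had ligated and sham values that did not overlap, both ligated values being below both sham values, as for 26.0% of all genes; those of Sox10 and Ngfr overlapped.

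**Figure D2:**
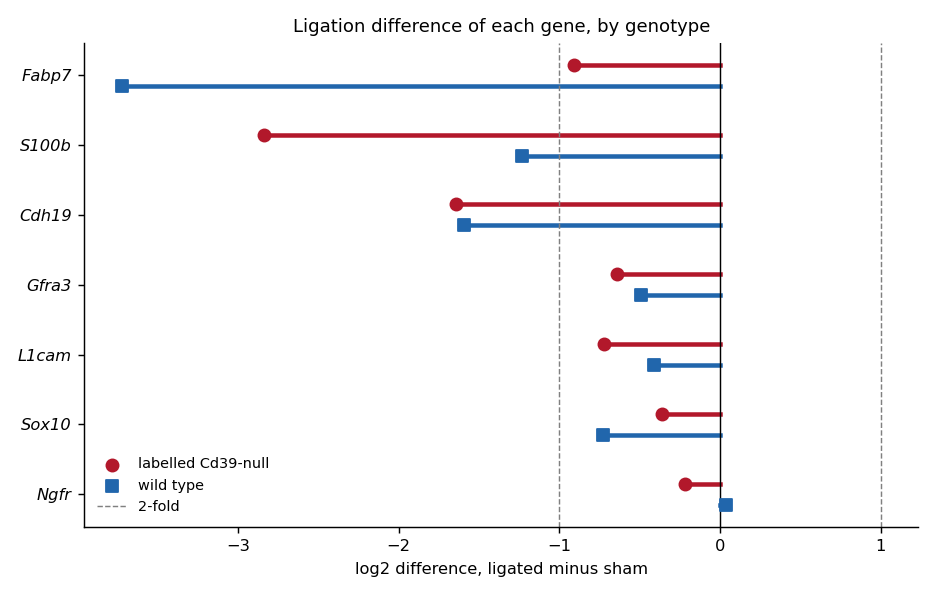
Log2 difference, ligated minus sham (horizontal axis), of the 7 genes, ordered by their mean difference; circles stand for the array labelled ligated Cd39-null against sham Cd39-null, squares for wild type, and dashed lines for 2-fold. S100b extends to -2.84 in the knockout and Fabp7 to -3.72 in wild type, while both Cdh19 values lie close together.

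With limma, fitting ligation and genotype as additive terms to all 4 arrays, an adjusted p under 0.05 for ligation was reached by 0 of the 7 members and 0 of 14115 genes. At an unadjusted p under 0.05, 3 members were lower (Cdh19, S100b and Fabp7), and by this criterion 7.79% of all genes were lower and 21.0% differed in either direction. The limma estimate for Cdh19 was -1.61 ± 0.22 (SE), with an adjusted p of 0.0952 that ranged from 0.0442 to 0.213 over the alternatives. For S100b it was -2.04 ± 0.43 (limma adjusted p = 0.121, range 0.109 to 0.250), and for Fabp7 -2.32 ± 0.69 (limma adjusted p = 0.175, range 0.152 to 0.316). The limma adjusted p-values of Gfra3, L1cam and Sox10 were 0.249, 0.261 and 0.278, with estimates of -0.57, -0.56 and -0.55, and that of Ngfr was 0.858. This fit leaves 1 residual degree of freedom, and unequal responses of the genotypes count as its error, most of all for Fabp7 and S100b.

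Cd39-null against wild type is the second comparison, made within each surgery. In ligated veins Fabp7 was 2.45-fold higher (log2 difference 1.29) and S100b 3.16-fold lower (-1.66) on the array labelled Cd39-null than in wild type, and the other 5 members differed by less than 2-fold; 3.61% of all genes were at least 2-fold higher, 2.66% lower and 6.27% in all. In sham veins Fabp7 was 2.86-fold lower in Cd39-null (-1.52), and no member was 2-fold higher; 3.54% of genes were at least 2-fold lower, 2.95% higher and 6.48% in all. Sox10, at a rounded difference of -1.0, lay just short of the 2-fold line in sham veins and was at -0.63 in ligated veins. Cdh19 differed by 0.19 in ligated and 0.24 in sham veins, and S100b by -0.05 in sham veins.

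Ngfr was lower in Cd39-null in both surgeries, by -0.77 in ligated and -0.51 in sham veins, and Gfra3 by -0.30 and -0.15. L1cam differed by -0.19 in ligated and 0.12 in sham veins. Fabp7 and L1cam were the 2 of 7 members with opposite signs in ligated and sham veins, as had 45.6% of all genes. The median of the members was -0.30 in ligated and -0.15 in sham veins, beside medians of -0.03 and -0.07 over all genes. For genotype, an adjusted limma p under 0.05 was reached by 0 of 7 members and 0 of 14115 genes. At an unadjusted p under 0.05, Sox10 (-0.81 ± 0.24 SE, limma adjusted p = 0.686, range 0.555 to 0.850) and Ngfr (-0.64 ± 0.23 SE, limma adjusted p = 0.704, range 0.538 to 0.850) were lower in Cd39-null, as were 4.65% of genes, and 6.94% differed in either direction.

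**Figure D3:**
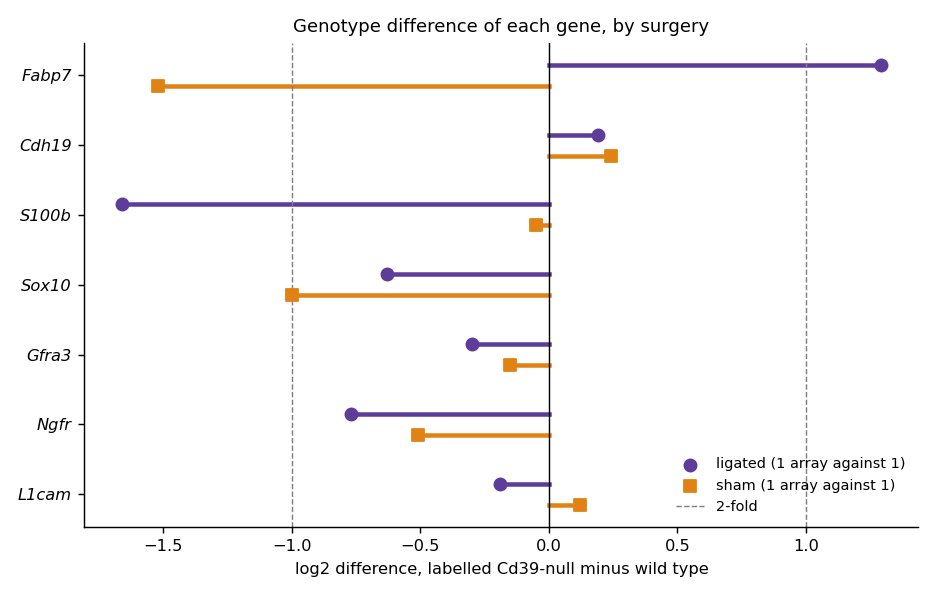
Log2 difference, labelled Cd39-null minus wild type (horizontal axis), of the 7 genes; circles stand for ligated veins, squares for sham veins, and dashed lines for 2-fold. Fabp7 lies at 1.29 in ligated and -1.52 in sham veins, S100b at -1.66 and -0.05, and Sox10 and Ngfr below 0 in both.

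The ligation difference itself was unlike in the genotypes for a pair of members. Taken as Cd39-null minus wild type, the difference of ligation differences was 2.81 for Fabp7 and -1.61 for S100b, and between -0.31 and 0.37 for the other 5. At least 2-fold higher by this measure were 6.99% of all genes, at least 2-fold lower 5.50%, and 12.5% in all. No residual degree of freedom is left for a test of it. Of the array pairs behind these values, the Cd39-null one rests on the array whose Entpd1 level goes against its label.

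Other Schwann cell genes were examined with a list of 25, of which 20 were measured here by a probe set with 1 symbol (the others were not analysed here) and 18 passed the filter. At least 2-fold lower were 6 of 20 in Cd39-null (5.80% of all genes) and 2 of 20 in wild type (3.63%). At least 2-fold higher were 0 in Cd39-null (10.9% of all genes) and 1 in wild type (6.60%). The latter was the endothelin receptor gene Ednrb (0.60 in Cd39-null and 1.57 in wild type), named after its value was seen. On each array 4 to 6 of the 20 were at or under the background stand-in, and 13 of 20 were below 0 in both genotypes, as were 33.6% of all genes. Their median ligation difference was -0.49 in Cd39-null and -0.24 in wild type. List counts of differences, here and below, cover all measured genes, whereas shares of all genes cover only genes that passed the filter. The receptor phosphatase gene Ptprz1 (-2.18 in Cd39-null and -1.45 in wild type) and Art3, of the ADP-ribosyltransferase family (-2.54 and -1.08) were at least 2-fold lower in both, as were 1.45% of all genes. Ptprz1 was at or under the background stand-in on both ligated arrays, so its differences are approximate.

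The sodium channel Scn7a, which non-myelinating Schwann cells carry, had 5.07 log2 on the array labelled ligated Cd39-null, against 7.44 in sham Cd39-null, and 6.15 in ligated wild type, against 7.09 in sham wild type. The matrix protein Matn2 had 5.21 against 7.06 in the knockout and 6.43 against 7.05 in wild type. Both resembled S100b in a larger knockout difference, with -2.38 in Cd39-null and -0.94 in wild type for Scn7a and -1.86 and -0.63 for Matn2. For ligation, 8 of the 18 genes tested were lower at an unadjusted limma p under 0.05, against 7.79% of all genes. A further 2 were higher, where 21.0% of all genes differed in either direction, and 0 passed the adjusted p.

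Myelin genes gave a weaker and mixed picture. Of 20 listed, 17 were measured (the others were not analysed here), and 10 of these 17 were at or under the background stand-in on the array labelled ligated Cd39-null, 10 in sham Cd39-null, 9 in ligated wild type, and 6 in sham wild type. Their median ligation difference was -0.33 in Cd39-null and -0.23 in wild type. At least 2-fold lower were 1 of 17 in Cd39-null (5.80% of all genes) and 3 of 17 in wild type (3.63%). At least 2-fold higher were 2 of 17 in Cd39-null (10.9%) and 2 of 17 in wild type (6.60%). In Cd39-null both counts were near the shares of all genes. The myelin and lymphocyte protein Mal was lower (-1.67 in Cd39-null and -0.59 in wild type), as were Drp2, a dystrophin relative of the Schwann cell membrane (-0.78 and -1.23, under the background stand-in on 2 arrays), and Ugt8a, an enzyme of myelin lipid synthesis (-0.54 and -1.06, on 3 arrays). Egr2, the transcription factor that drives myelination and is also induced in leukocytes, was at least 2-fold higher in both (1.59 and 1.36).

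Genes of the repair state, which Schwann cells take on when their axons are cut, were mixed and not lower as a group. Below 0 were 5 of the 14 measured genes in Cd39-null (48.3% of all genes) and 6 in wild type (50.6%). At or under the background stand-in were 4 of the 14 on each ligated array and 6 on each sham array. Of 14 measured, 3 were at least 2-fold higher in Cd39-null (10.9% of all genes) and 0 in wild type (6.60%). In either genotype 0 were at least 2-fold lower (5.80% and 3.63% of all genes), and the medians were 0.26 and 0.39. The higher ones in Cd39-null were Ucn2, a peptide of the urocortin family (2.74, and 0.85 in wild type), Jun, the transcription factor of the repair programme and a general stress gene (1.82, and 0.49), and the cytokine gene Lif (1.62, and 0.91, under the background stand-in on 1 array). Sox4 differed by 0.85 in Cd39-null and 0.88 in wild type. None of these genes is made by Schwann cells alone. Macrophage genes, which can share Jun and Egr2, had medians of 1.39 in Cd39-null and 2.05 in wild type, and their part in these values was not tested.

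Genes listed for the perineurial and endoneurial sheath, not all of them particular to it, were mostly below 0. Of 14 measured, 2 were at least 2-fold lower in Cd39-null (5.80% of all genes) and 1 in wild type (3.63%), with medians of -0.61 and -0.42, and 10 of 14 were below 0 in both genotypes (33.6%). The tight junction gene Cldn1, named after its value was seen, was at least 2-fold higher in Cd39-null (1.40) and at -0.97 in wild type. The laminin chain Lama2 (-1.48 in Cd39-null and -0.63 in wild type) and the hedgehog receptor Ptch1 (-1.21 and -0.70) were lower. Lypd2 differed by -0.40 and -1.17 and was under the background stand-in on 1 array. Moxd1 (-0.79 and -0.62) was at or under the background stand-in on all 4 arrays.

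Axon and neuron genes of the autonomic system, with which these glia are in contact, were also lower after ligation. Of 21 measured, 11 were at least 2-fold lower in Cd39-null (5.80% of all genes) and 14 in wild type (3.63%), 9 of them in both (1.45%). The medians were -1.13 and -1.39. At an unadjusted limma p under 0.05, 16 of the 19 that passed the filter were lower (7.79% of all genes), and 0 passed the adjusted p. Examples were the ganglionic acetylcholine receptor subunit Chrna3 (-3.35 in Cd39-null and -2.41 in wild type), the synaptic vesicle protein Syt1 (-2.41 and -3.05) and the synaptic membrane protein Snap25 (-3.28 and -1.58). On the array labelled ligated Cd39-null, 7 of the 21 genes were at or under the background stand-in, Chrna3 and Syt1 among them, so their knockout differences are approximate. The summed linear level of the 21 genes was 301 on the array labelled ligated Cd39-null, against 1010 in sham Cd39-null, and 448 in ligated wild type, against 1180 in sham wild type. That of the 7 members was 116 against 282 in the knockout and 126 against 437 in wild type. Whether glial and neuronal genes share a source, such as a piece of nerve or ganglion beside the vein, was not tested.

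**Figure D4:**
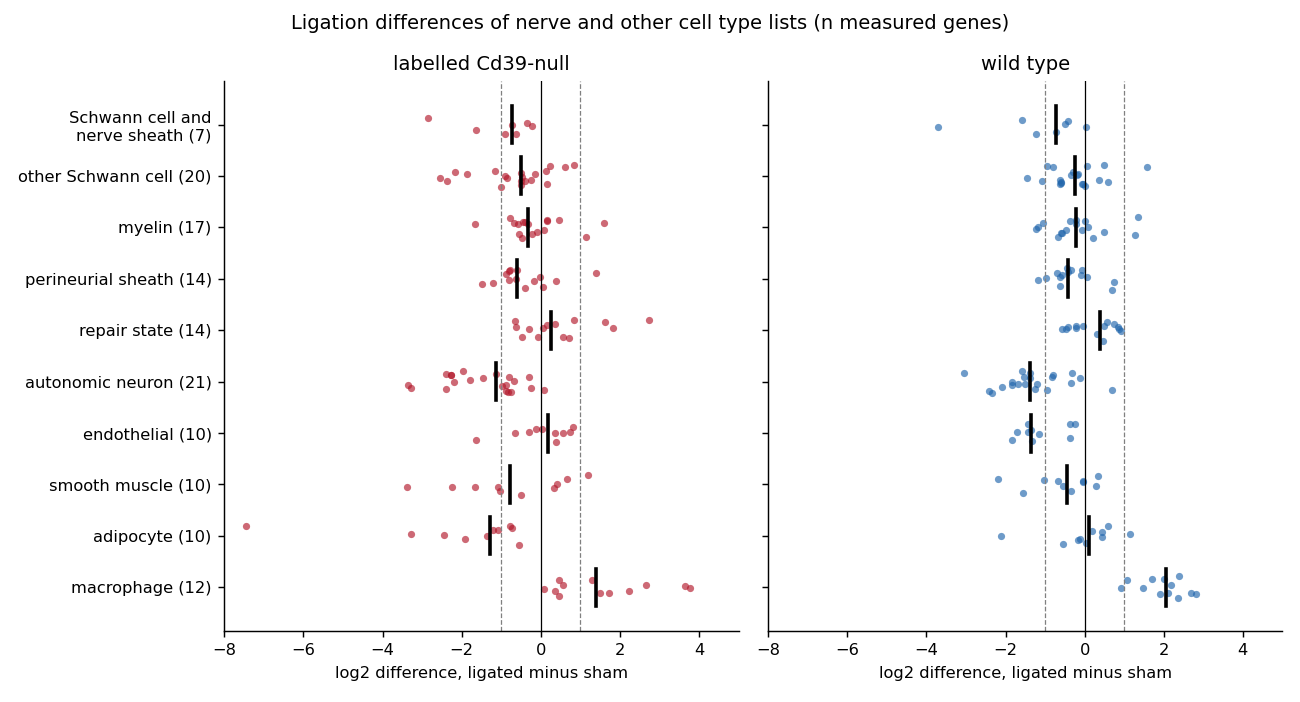
Log2 difference, ligated minus sham (horizontal axis), of the genes of 10 lists, with the array labelled ligated Cd39-null against sham Cd39-null on the left and wild type on the right; each point is a gene, thick bars are medians, dashed lines are 2-fold, and the number of measured genes follows each name. Medians of the 7 genes and of other Schwann cell, myelin, perineurial sheath, autonomic neuron and smooth muscle genes lie below 0 in both panels. Those of endothelial genes lie below 0 in wild type only and those of adipocyte genes in Cd39-null only. Those of repair state genes lie above 0 in both panels, and those of macrophage genes above 1.

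Receptors and ligands related to Gfra3 and Ngfr were then described. Of the GDNF family, Ret, the signalling subunit shared by the Gfra co-receptors, was lower (-0.51 in Cd39-null and -1.35 in wild type), as was Gfra2, the neurturin receptor (-1.85 and -0.22). Gfra1 differed by 0.43 and -0.08, and Nrtn, the ligand neurturin, was under the background stand-in on all arrays. Artn, the ligand of Gfra3, differed by 0.16 and -0.23 and was also under that level on all arrays. Among neurotrophin receptors, Ntrk3 (-1.69 and -0.48) and Ntrk2 (-1.13 and 0.22) were at least 2-fold lower in Cd39-null and less than 2-fold apart in wild type; the difference between genotypes was not tested. Sorcs2 (0.12 and 0.40) and Ntf5 (-0.13 and -0.39) differed little, and Ntf5 was under the background stand-in on all arrays.

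Relatives of the lineage markers gave mixed values. Fabp3, a fatty acid binding protein of muscle and brown fat, had 2.79 log2 on the array labelled ligated Cd39-null, against 7.13 in sham Cd39-null, and 3.00 in ligated wild type, against 3.01 in sham wild type, so that it stood out on a single array where Fabp7 did not. Fabp4, of adipocytes, endothelium and macrophages, differed by -1.08 in Cd39-null and -0.51 in wild type. Among 14 S100 relatives, 3 passed 2-fold upwards in Cd39-null and again in wild type, as did 3.63% of all genes, and 0 were at least 2-fold lower in either: S100a16 (1.97 in Cd39-null and 1.39 in wild type), S100a4 (1.76 and 1.15) and S100a10 (1.29 and 1.05). S100b was thus lower on the same arrays on which these relatives were higher.

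Of 13 other cadherins, 1 was at least 2-fold lower in Cd39-null (5.80% of all genes), 1 in wild type (3.63%) and 0 in both (1.45%). Cdh13, of vessel wall cells, differed by -0.42 in Cd39-null and -1.56 in wild type, and Cdh11, of mesenchymal cells, by 0.56 and 0.60. Among relatives of L1cam and their axonal partners, Cntn1 was lower (-0.88 and -1.83, under the background stand-in on 3 arrays), while Nfasc (-0.69 and -0.23) and Nrcam (-0.52 and -0.39, under it on 2 arrays) were less than 2-fold apart. Of 7 other Sox genes, 0 were at least 2-fold apart in either genotype (16.7% of all genes in Cd39-null and 10.2% in wild type). Sox6 had the largest mean difference (-0.81 and -0.72).

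Markers of other cells that express a member were set beside it. Adipocyte genes, which matter for S100b, had a median genotype difference in sham veins of 1.17, with Ucp1 at 5.57 and Lep at 2.48, while S100b differed by -0.05. Their median ligation difference was -1.28 in Cd39-null, with 7 of 10 genes at least 2-fold lower (5.80% of all genes). In wild type it was 0.11, with 1 of 10 lower (3.63%) and 1 higher (6.60%). The summed linear level of the adipocyte genes was 774 on the array labelled ligated Cd39-null, against 2570 in sham Cd39-null, and 1000 in ligated wild type, against 954 in sham wild type. Adipocyte genes were thus highest in sham Cd39-null, whereas S100b was about equal on both sham arrays and lowest on the array labelled ligated Cd39-null. The part of adipocytes in the S100b values was not tested.

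Of 8 melanocyte genes, which matter for Sox10, 5 were at or under the background stand-in on the array labelled ligated Cd39-null, 5 in sham Cd39-null, 4 in ligated wild type, and 6 in sham wild type. Their median ligation difference was -0.23 in Cd39-null and -0.11 in wild type. Lymph node stromal cells can carry Ngfr. Their genes had a median of 1.30 in Cd39-null against wild type in sham veins, with Glycam1 at 2.90, where Ngfr was at -0.51. Smooth muscle genes, with a genotype median of -1.30 in ligated and -1.33 in sham veins, were lower in Cd39-null in both surgeries, as Sox10 and Ngfr were. At least 2-fold lower were 7 of 10 in ligated veins (2.66% of all genes) and 8 of 10 in sham veins (3.54%). The part of smooth muscle in the Sox10 and Ngfr values was not tested.

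Genes with the most similar profile were found by the Euclidean distance between log2 values centred on each gene's mean over the 4 arrays. For the mean profile of the 7 members, which was -0.70 on the array labelled ligated Cd39-null, 0.35 in sham Cd39-null, -0.40 in ligated wild type, and 0.76 in sham wild type, the nearest of 13252 candidate genes were Dock9, Mettl18, Firre, Zfp804a and Inpp4b, at distances of 0.0567 to 0.107 log2. With 4 points per gene a near profile is common, and 367 genes lay within 0.5. Cdh19 was nearest to Slc35f1 (distance 0.152), Strbp (0.198) and Ackr3 (0.222), and 28 genes lay within 0.5. S100b was nearest to Tet1 (0.189), Pdgfrl (0.297) and Rtn1 (0.315), with 7 genes within 0.5.

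Fabp7 had 0 genes within 0.5 of its profile. Its nearest were Scgb1a1 (0.565), a secreted protein of airway cells, Pkhd1l1 (0.943) and Serpina1c (0.946), a liver protease inhibitor. Scgb1a1 had 3.54 log2 on the array labelled ligated Cd39-null, against 4.26 in sham Cd39-null, and 1.70 in ligated wild type, against 6.18 in sham wild type, the ligated wild-type value being under the background stand-in. Its highest and lowest arrays were thus those of Fabp7. For Sox10, Gfra3, Ngfr and L1cam, with small ranges over the arrays, 460, 2761, 1397 and 2874 genes lay within 0.5. The nearest of these were Rsrc1, Zfhx4, Rab34 and Tulp2, the last being under the background stand-in on all 4 arrays.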

How the data were processed

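The authors deposited 1 log2 value per probe set and array. The submitters' processing notes name oligo and RMA; no version or genome build was given in the sources used. A usual RMA run includes quantile normalisation, which would hide a shift of all genes. The deposited values were not equal in distribution over the arrays. Quantile normalisation of them changed differences, such as that of Fabp7 for ligation in Cd39-null from -0.91 to -1.17. From the authors' log2 values, 35556 probe sets were named through the platform annotation: 21218 had 1 symbol, 1881 several and 12457 none. The brightest probe set of a gene by mean over the arrays was used. Genes with a mean log2 of at least 2.29 were kept. Comparisons were differences of log2 values between single arrays, called at 2-fold. An additive model was fitted with limma 3.58.1 in R 4.3.3 (prior degrees of freedom 3.67) on all genes kept and adjusted by Benjamini-Hochberg. The number of arrays limits precision; read depth does not apply to arrays. Members and lists were chosen with earlier results of these data known. From nerve and family lists up to 4 genes, and from other lists up to 3, could be named, by mean ligation difference (other cell types also by genotype difference in sham); Artn, Cldn1 and Ednrb are outside this rule, chosen once their values were known. Alternatives were quantile and cyclic loess normalisation, the mean over probe sets, a floor at the olfactory receptor percentile, other filters, 1.5-fold, another reference array, eBayes with trend and all probe sets. Promoters were RefSeq windows of GRCm38.p6.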

Additional observations from a re-analysis of the deposited data

Results flagged for a closer look

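Fabp7 had genotype differences of opposite sign, 1.29 in ligated and -1.52 in sham veins (labelled Cd39-null minus wild type), which are 2.81 log2 apart; 45.6% of all genes had opposite signs here, and the difference was not tested. L1cam also had opposite signs, -0.19 in ligated and 0.12 in sham veins, -0.31 apart, not tested. Ngfr had ligation differences of opposite sign, -0.22 in Cd39-null and 0.04 in wild type, -0.26 apart, as had 31.5% of genes; this was not tested either, and after quantile normalisation the wild-type value was -0.05.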

How the results depend on the processing

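No paired analysis was possible by replicate number, because each group had 1 array and no numbers; the limma fit for ligation is by construction a comparison within the genotypes. Each member has 1 probe set above the floor on every array, so the probe set rule and the floor left its differences as they were. Of 56 member values under quantile or cyclic loess normalisation, 54 kept their sign, 54 their side of 2-fold, and all 56 moved by at most 0.26 log2. The exceptions in sign were Ngfr, ligation in wild type (-0.05 with quantile), and S100b, genotype in sham (0.06 with cyclic loess). The exception in side was Fabp7, ligation in Cd39-null, at -1.17 under both, which makes 3 members lower there. The floor moved the median ligation difference of all genes kept to -0.29 in Cd39-null and -0.28 in wild type. With wild type, sham, as the reference for the array labelled ligated Cd39-null, 4 members were at least 2-fold lower and the median was -1.36 (Fabp7 -2.43, Sox10 -1.36, Ngfr -0.73). At 1.5-fold, members lower numbered 5 (ligation, Cd39-null), 2 (genotype, sham) and 3 (genotype, ligated); all genes apart or lower numbered 5145 and 2042 (ligation, Cd39-null), 3896 and 1661 (ligation, wild type), 3192 and 1962 (genotype, sham), and 2519 and 1333 (genotype, ligated). The share of higher genes among those at least 2-fold apart in Cd39-null was 65.3%, but 51.4% after quantile and 53.9% after cyclic loess normalisation; in sham veins by genotype it was 45.5%, and 58.4% after cyclic loess.

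With limma, 5 members had an unadjusted p under 0.05 for ligation after quantile normalisation, 5 after cyclic loess and 5 without the filter; for genotype 1 did after cyclic loess. With the floor, limma gave 2 members (Cdh19 and Gfra3) and 7895 genes an adjusted p under 0.05 for ligation, and 9732 genes for ligation and 1602 for genotype an unadjusted p under 0.05: genes at the floor on all arrays differ by the floors alone, with no residual. With all probe sets the unadjusted counts were 5525 for ligation and 2042 for genotype.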
